A study of Homo sapiens with 9 samples.

Results

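The genes of the DNA replication machinery were followed in SET2, a *JAK2* mutant megakaryoblastic leukemia line, and in 2 clones of it that lack *DYRK1A*. The genes were chosen by name, with earlier results of these data known. They were 49 of the 60662 genes in the deposited table. They covered origin licensing, the replicative helicase, the polymerases, the sliding clamp and its loader, and the proteins of the fork. Each had 1 row in the table and passed the filter on low counts, and the lowest count of any of them in any library was 317 (*ORC5*). RNA-seq covered wild-type SET2 cells (WT) and the clones 11H1 and 14B5, each with n = 3 libraries and no treatment, and the series compares either KO clone with WT. The KO clones carry out-of-frame indels from a Cas9 ribonucleoprotein and were each grown from a single cell, so the libraries of a clone share that founder. WT was the parental line, and no clone grown from an unedited cell was analysed here, so the loss of *DYRK1A* and the origin of a clone cannot be told apart. The labels describe the line as leukemia that followed a myeloproliferative neoplasm (MPN), and they name a different library kit from the stranded one in the study's methods.

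Before S phase, the origin recognition complex (ORC) with CDC6 and CDT1 loads the MCM2–7 ring onto DNA, and geminin holds CDT1 back from loading it again. The CDC7 kinase with DBF4 then fires origins, CDC45 and the GINS complex join MCM2–7 to form the moving helicase, and polymerases alpha, delta and epsilon copy the strands behind it with the PCNA clamp. DYRK1A is a kinase that phosphorylates LIN52 and thereby helps the DREAM complex to assemble, a repressor that holds cell cycle genes down outside the dividing cycle through E2F sites and CHR elements in their promoters. Genes of the replication machinery are well-known E2F targets and peak as cells enter S phase. In bulk RNA a larger share of cells in S phase and more RNA per cell cannot be told apart.

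The promoters of 5 of the genes are shown because the results turn on them. *MCM6* was lower in both clones, *POLE* was higher in 11H1 and not called in 14B5, and *PCNA* was higher in 14B5 and not called in 11H1. *MCM2* and *MCM7* encode subunits of the same ring as *MCM6* and were higher. Each sequence is the 250 bases before the RefSeq start of transcription on GRCh38.p14, read 5′ to 3′ along the gene. Where the table gives several starts, 3 for *MCM7* and 2 for *PCNA*, the one listed first is shown, and the windows of the others held no E2F site. Capitals mark E2F sites (TTTCCCGC, TTTCGCGC, TTTGCCGC or TTTGGCGC, on either strand) and CHR elements (TTTGAA or TTCGAA, on either strand). The windows are chr2:135876444-135876693 (minus strand) for *MCM6*, chr12:132687343-132687592 (minus) for *POLE*, chr20:5126623-5126872 (minus) for *PCNA*, chr3:127598161-127598410 (plus) for *MCM2* and chr7:100101398-100101647 (minus) for *MCM7*.
MCM6: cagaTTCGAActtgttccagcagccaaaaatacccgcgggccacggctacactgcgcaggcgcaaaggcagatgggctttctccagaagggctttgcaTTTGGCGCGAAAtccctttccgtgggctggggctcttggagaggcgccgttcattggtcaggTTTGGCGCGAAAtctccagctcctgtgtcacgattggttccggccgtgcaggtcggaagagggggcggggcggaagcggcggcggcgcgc
POLE: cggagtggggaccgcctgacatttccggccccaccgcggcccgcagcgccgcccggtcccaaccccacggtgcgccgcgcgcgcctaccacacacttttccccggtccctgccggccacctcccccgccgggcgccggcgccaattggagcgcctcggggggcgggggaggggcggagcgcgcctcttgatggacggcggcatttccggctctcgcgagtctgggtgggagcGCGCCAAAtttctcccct
PCNA: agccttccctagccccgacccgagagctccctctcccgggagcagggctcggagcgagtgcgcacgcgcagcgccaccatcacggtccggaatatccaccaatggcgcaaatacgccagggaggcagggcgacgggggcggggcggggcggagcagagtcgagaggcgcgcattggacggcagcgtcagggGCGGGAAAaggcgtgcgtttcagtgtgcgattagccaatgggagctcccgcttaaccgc
MCM2: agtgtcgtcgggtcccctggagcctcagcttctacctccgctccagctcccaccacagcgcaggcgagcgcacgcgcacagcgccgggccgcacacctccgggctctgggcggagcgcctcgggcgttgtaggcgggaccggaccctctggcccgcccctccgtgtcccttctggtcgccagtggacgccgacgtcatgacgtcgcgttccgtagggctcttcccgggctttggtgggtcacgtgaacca
MCM7: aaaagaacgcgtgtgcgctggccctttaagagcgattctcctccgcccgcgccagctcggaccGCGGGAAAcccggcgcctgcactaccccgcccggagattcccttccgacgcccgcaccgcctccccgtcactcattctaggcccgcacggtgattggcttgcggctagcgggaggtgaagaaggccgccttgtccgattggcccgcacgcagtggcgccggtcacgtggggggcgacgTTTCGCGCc

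*MCM6* held the most matches of the 5: 4 E2F matches in 2 overlapping pairs, which begin 152, 148, 90 and 86 bases before the start, and a CHR match that begins 246 bases before it. *MCM7* held 2 E2F matches (187 and 9 bases before the start), *PCNA* held 1 (59 bases) and *POLE* held 1 (18 bases), and *MCM2* held neither motif before the start and 2 overlapping E2F matches just past it. Over the full RefSeq windows of 300 bases, which reach 50 bases past the start, 22 of the 43 replication genes with a window held an E2F site (51.2%), beside 3.99% of 27305 genes and 6.44% of the 11064 with a window that were tested here. A CHR element was present in 2 of the 43 (4.65%), beside 19.5% of all genes, and the CCAAT box, the site of the factor NF-Y, in 26 (60.5%), beside 39.7%. The other 6 genes (*MCM4*, *MCM5*, *GINS4*, *POLD3*, *RPA2* and *RPA3*) had no window here. Among the genes with a window, an E2F site was held by 16 of the 30 called higher in 11H1, 5 of the 10 not called and 1 of the 3 called lower. In 14B5 these counts were 20 of 37, 1 of 5 and 1 of 1. A match describes the letters of the window only.

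The libraries held 32347779 to 60272245 expected counts. The 49 genes took 0.556% to 0.571% of them in WT, 0.651% to 0.664% in 11H1 and 0.707% to 0.716% in 14B5. Mitochondrial genes took 3.54% to 6.03% of counts in WT, 7.23% to 7.39% in 11H1 and 3.30% to 3.92% in 14B5. With those genes left out, 34 replication genes were called higher in 11H1 and 3 lower, the counts found with them in. Of 10 megakaryoblast markers, 9 were at 1 CPM or more in WT, 9 in 11H1 and 8 in 14B5. Their summed level was 2830 to 2930 CPM in WT, 2230 to 2330 in 11H1 and 2240 to 2290 in 14B5. Single markers moved by unlike amounts. In 11H1, 8 were called lower (beside 32.8% of all genes) and 2 higher (beside 31.8%). In 14B5, 7 were called lower (beside 28.7%) and 2 higher (beside 24.9%). *CD34* fell from a mean of 271 CPM in WT to 100 in 11H1 and 48.4 in 14B5, while *TAL1* rose from 243 to 333 and 310. The 6 erythroid markers summed to 1430 to 1670 CPM in WT, 1900 to 2100 in 11H1 and 1520 to 1790 in 14B5. Monocyte and granulocyte markers reached 1 CPM for 1 to 2 of 6 in each group. Their sum, nearly all from *LYZ*, was 197 to 200 CPM in WT, 102 to 109 in 11H1 and 112 to 124 in 14B5. Lymphoid markers (1 to 2 of 6 at 1 CPM or more) summed to 21.8 to 24.4 CPM in WT, 18.6 to 20.3 in 11H1 and 11.4 to 13.5 in 14B5. Epithelial and fibroblast markers (1 to 2 of 6) summed to 4.62 to 5.92, 3.99 to 4.83 and 2.42 to 3.32 CPM. None of these markers was at 0 in every library. The sums of each clone did not overlap those of WT, except the erythroid sum in 14B5 and the epithelial and fibroblast sum in 11H1. The part of these 5 lists in the results was not tested. The mRNA of *DYRK1A* itself stood at 197, 196 and 218 CPM in WT, 188, 191 and 192 in 11H1, and 191, 182 and 174 in 14B5. It was not called in 11H1 (log2FC -0.09 ± 0.050, adjusted p = 0.131) and was slightly lower in 14B5 (log2FC -0.17 ± 0.058, adjusted p = 0.0278). These levels do not check the edit, since an indel need not lower the RNA.

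Most of the replication machinery was higher in both clones than in WT. In 11H1, 34 of the 49 genes were called higher (69.4%, beside 31.8% of the 16675 genes tested), 3 were called lower (beside 32.8%) and 12 were not called. Their median log2 fold change (log2FC) was 0.24, against -0.01 for all genes. Here and below, a log2FC is given with its SE from the edgeR fit and a p adjusted over all genes tested. The rises were led by *POLE*, the catalytic subunit of polymerase epsilon (log2FC 0.94), *MCM8*, a helicase of recombination (0.70), and *ORC6*, the smallest ORC subunit (0.67). The 3 lower genes were *MCM6* (-0.55), the primase subunit *PRIM1* (-0.25) and *ORC4* (-0.16). Most shifts were small: 11 genes rose by a fold that was tested to exceed 1.2, beside 18.7% of all genes, and 1, *MCM6*, fell by such a fold, beside 20.6%.

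In 14B5 the rise was broader, with 43 of the 49 genes called higher than in WT (87.8%, beside 24.9% of the 16537 genes tested), 1 called lower (beside 28.7%) and 5 not called. The median log2FC was 0.36, against -0.01 for all genes. *GINS2*, a subunit of the helicase activator GINS (0.71), and the clamp loader subunits *RFC3* (0.62) and *RFC2* (0.61) led it, and *MCM6* was the 1 gene called lower (-0.29). A fold tested to exceed 1.2 was reached by 26 of the rises, beside 8.5% of all genes, and by 0 falls, beside 19.2%. The 5 genes that were not called in 14B5 were *ORC4*, *ORC5*, *PRIM1*, *POLE* and *RFC1*. Both clones were set against the same WT libraries, so the counts of the 2 comparisons are not independent.

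**Figure D1:**
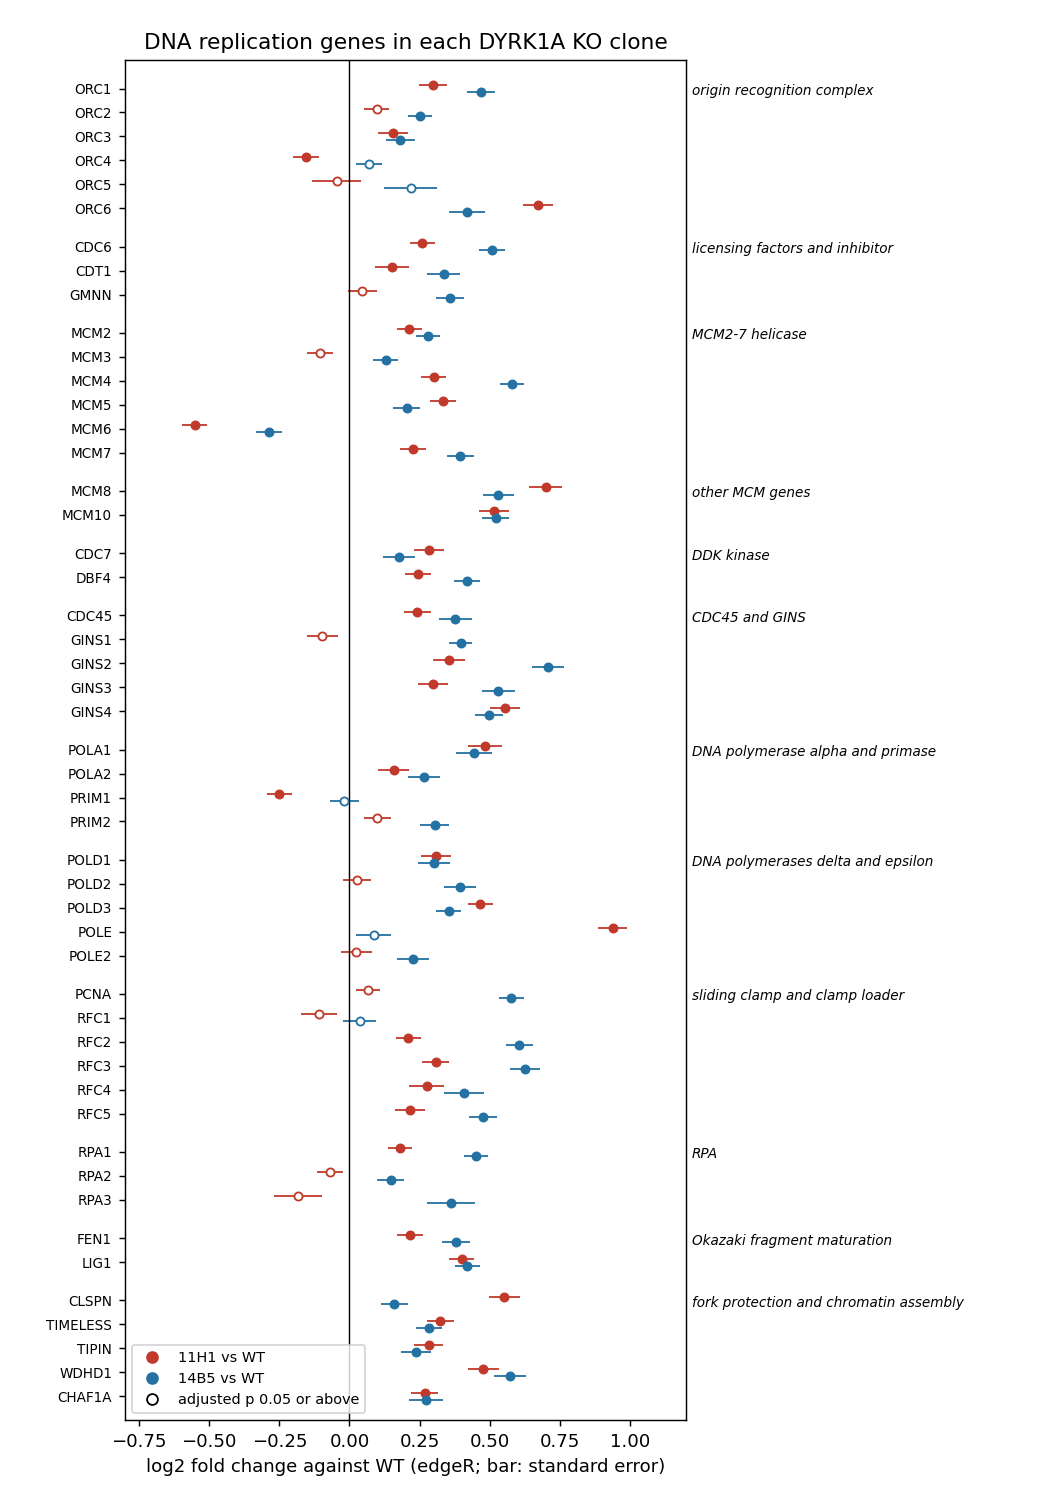
Log2 fold change against WT (horizontal axis) of each of the 49 replication genes, grouped by role, in 11H1 (red) and 14B5 (blue), with bars for the standard error of the edgeR fit and open circles where the adjusted p was 0.05 or above. Most points lie to the right of 0, *MCM6* lies at -0.55 and -0.29, and *POLE* reaches 0.94 in 11H1 and 0.09 in 14B5.

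With both clones pooled (KO, n = 6, against WT, n = 3), 33 of the 49 genes were called higher (67.3%, beside 14.3% of the 17080 genes tested). *MCM6* was the 1 called lower (log2FC -0.41 ± 0.091, adjusted p = 0.00729), beside 17.7% of all genes. A fold tested to exceed 1.2 was reached by 9 rises (beside 4.72% of all genes) and 0 falls (beside 11.6%). The median log2FC of the 49 was 0.31, against 0.02 for all genes. The largest pooled rises that were called were *MCM8* (log2FC 0.62 ± 0.073, adjusted p = 0.000154), *ORC6* (log2FC 0.56 ± 0.089, adjusted p = 0.0011) and *GINS2* (log2FC 0.55 ± 0.12, adjusted p = 0.00631). All 6 KO libraries lay above all 3 of WT for 35 of the 49 genes, beside 16.3% of all genes, and below them for 1, *MCM6*, beside 20.3%. The 2-sided exact permutation p was 0.0238 for each of these genes, the smallest this test gives with 6 libraries against 3. Libraries that do not overlap always give this value, so it adds nothing to the separation itself. The pooled fit and the permutation test take the 6 libraries as replicates although they come from 2 clones. *POLE* and *PCNA* were each called in 1 clone and were not called in the pooled fit (log2FC 0.57 ± 0.24, adjusted p = 0.0967 for *POLE* and log2FC 0.35 ± 0.16, adjusted p = 0.114 for *PCNA*). Without library 1 of 14B5 *POLE* was called (log2FC 0.67, adjusted p = 0.0399). In a fit of all 3 groups, which keeps the clones apart, both were called higher (adjusted p = 2.07e-06 for *POLE* and 4.71e-06 for *PCNA*). That fit sets the mean of the 2 clones against the spread between libraries within a group. The difference between the clones is not in its error, so these p values do not measure the spread between clones. Leaving out 1 library at a time gave between 24 and 35 genes called higher in the pooled comparison.

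The clones were also compared directly, without the WT libraries they share. Between them 36 of the 49 genes were called (beside 63.7% of the 16352 genes tested), and most of these calls went 1 way. In 11H1, 31 were lower than in 14B5 (63.3%, beside 32.1%) and 5 were higher (*POLE*, *CLSPN*, *ORC6*, *MCM8* and *MCM5*, beside 31.6%). The median difference was -0.18 on the log2 scale for the 49 genes and 0.00 for all genes. A fold tested to exceed 1.2 between the clones was reached by *POLE* and *CLSPN*, higher in 11H1 (beside 20.3% of all genes), and by *PCNA*, *RPA3*, *GINS1*, *RFC2*, *POLD2* and *GINS2*, higher in 14B5 (beside 13.2%). The call of *MCM5* (log2FC 0.11 ± 0.042, adjusted p = 0.0307) ended without library 1 or 2 of either clone (highest adjusted p = 0.112) and with no filter (0.158). That of *MCM8* (log2FC 0.15 ± 0.047, adjusted p = 0.0136) ended without library 3 of 11H1 (log2FC 0.11, adjusted p = 0.0851).

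**Figure D2:**
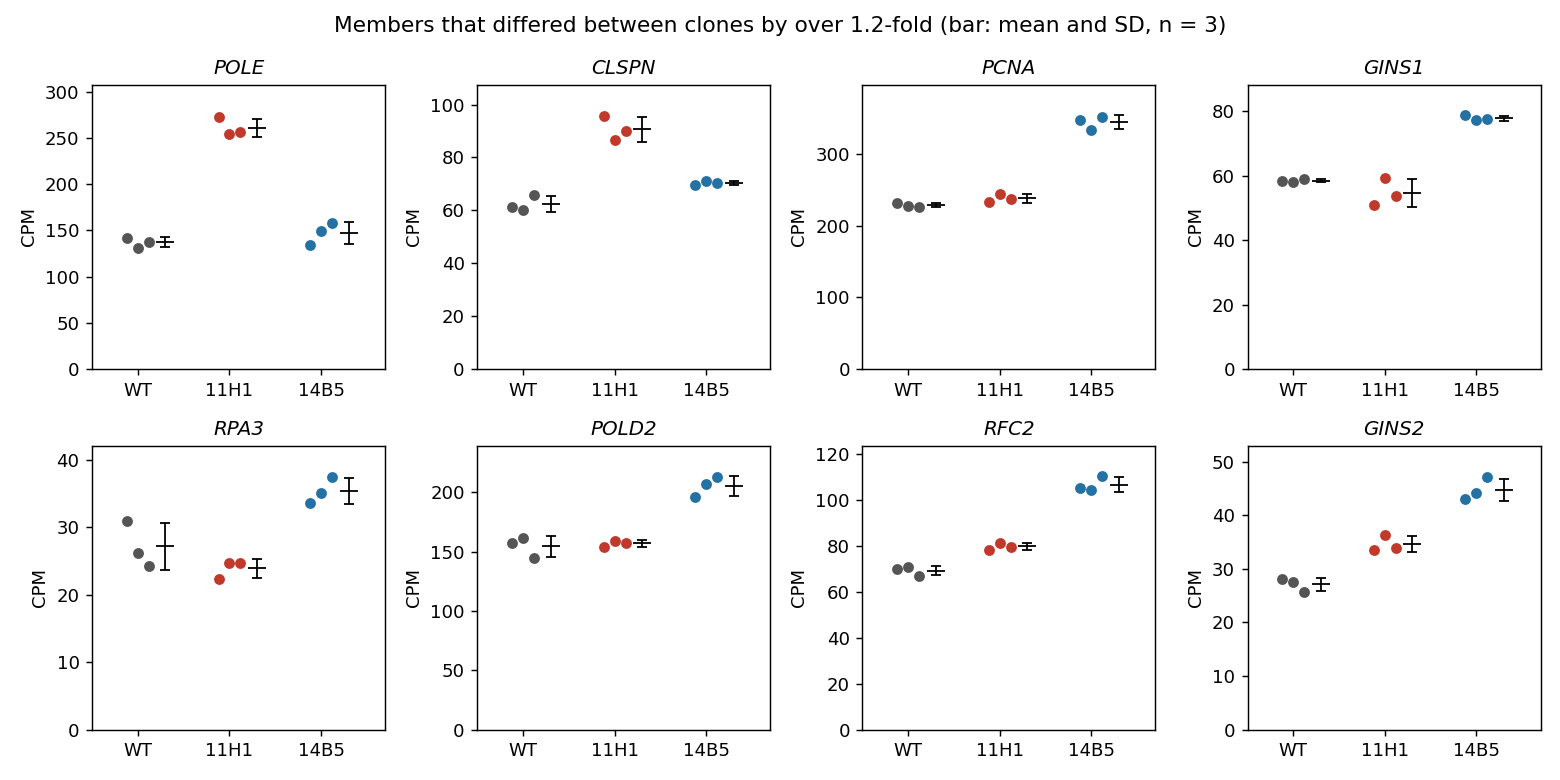
Level in CPM (vertical axis, from 0) of the 8 genes whose difference between the clones was tested to exceed 1.2-fold, 1 point for each library of WT (grey), 11H1 (red) and 14B5 (blue), with mean and SD beside the points. *POLE* and *CLSPN* are highest in 11H1, and the other 6 are highest in 14B5, where *PCNA* stands at 333 to 351 CPM and at 226 to 245 CPM in the other libraries.

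The counts by role that follow stand beside 31.8% of all genes called higher and 32.8% lower in 11H1, and 24.9% and 28.7% in 14B5, and the groups are small. Among the licensing genes, 3 of the 6 ORC subunits were called higher in 11H1 and 1 lower, and 4 were called higher in 14B5. *ORC6* stood at 48.6, 48.4 and 43.6 CPM in WT, 74.0, 73.9 and 75.7 in 11H1, and 60.9, 61.2 and 68.0 in 14B5. The groups did not overlap, and *ORC6* was higher in 11H1 (log2FC 0.67 ± 0.053, adjusted p = 5.11e-07) and in 14B5 (log2FC 0.42 ± 0.063, adjusted p = 0.000333) than in WT. It was also higher in 11H1 than in 14B5 (log2FC 0.24 ± 0.051, adjusted p = 0.00144). *ORC1*, the subunit whose protein is regulated through the cycle, was higher in 11H1 (log2FC 0.30 ± 0.051, adjusted p = 0.000265) and in 14B5 (log2FC 0.47 ± 0.049, adjusted p = 2.77e-05).

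The other ORC genes moved little. *ORC2* was higher in 14B5 (log2FC 0.25 ± 0.043, adjusted p = 0.000738). In 11H1 *ORC2* was not called (log2FC 0.10 ± 0.044, adjusted p = 0.0713), except without library 3 of WT (adjusted p = 0.0425). *ORC3* was higher in 11H1 (log2FC 0.16 ± 0.053, adjusted p = 0.0214) and in 14B5 (log2FC 0.18 ± 0.053, adjusted p = 0.0148). Neither call of *ORC3* remained without library 2 of WT (adjusted p = 0.143 and 0.0679), nor did that in 11H1 without its library 3 (0.089) or with no filter on low counts (0.0602). *ORC4* was lower in 11H1 (log2FC -0.16 ± 0.047, adjusted p = 0.0123), a call that ended without library 2 of 11H1 (adjusted p = 0.0526). In 14B5 *ORC4* was not called (log2FC 0.07, adjusted p = 0.243). *ORC5*, the lowest of the 49 at 8.56 to 12.6 CPM, was not called in 11H1 (log2FC -0.05, adjusted p = 0.665) or 14B5 (log2FC 0.22 ± 0.095, adjusted p = 0.0791). Without library 2 of 14B5 it was called there (log2FC 0.33, adjusted p = 0.0113), as it was with no filter (log2FC 0.25, adjusted p = 0.0298).

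The loading factors rose more in 14B5 than in 11H1. *CDC6*, which acts with ORC in loading MCM2–7, stood at 92.8, 87.8 and 93.0 CPM in WT, 110.2, 108 and 108 in 11H1, and 133.5, 129 and 131 in 14B5. Its libraries lay in 3 separate ranges, WT lowest and 14B5 highest. *CDC6* was higher than WT in 11H1 (log2FC 0.26 ± 0.045, adjusted p = 0.000302) and in 14B5 (log2FC 0.51 ± 0.045, adjusted p = 8.09e-06), and the clones differed (log2FC -0.26 ± 0.041, adjusted p = 0.000135).

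*CDT1*, its partner in loading, stood at 52.5, 60.2 and 57.0 CPM in WT, 64.0, 64.8 and 58.7 in 11H1, and 73.3, 74.5 and 68.7 in 14B5. It was higher in 14B5 (log2FC 0.34 ± 0.060, adjusted p = 0.000955), and 11H1 overlapped WT. The rise of *CDT1* in 11H1 (log2FC 0.15 ± 0.060, adjusted p = 0.0419) ended without library 1 of WT (adjusted p = 0.2) or library 1 or 2 of 11H1 (0.146 and 0.133). It also ended with no filter (0.0565) and with at least 10 counts in every library (0.052). In *CDT1* 11H1 lay below 14B5 (log2FC -0.20 ± 0.052, adjusted p = 0.00555). *GMNN* encodes geminin, the inhibitor of CDT1, and stood at 83.7, 77.3 and 76.3 CPM in WT, 78.8, 81.0 and 84.3 in 11H1, and 101, 102 and 105 in 14B5. Its libraries overlapped between 11H1 and WT (log2FC 0.05 ± 0.051, adjusted p = 0.452). Those of 14B5 lay above both (log2FC 0.36 ± 0.050, adjusted p = 0.000205 against WT), and the clones differed (log2FC -0.33 ± 0.044, adjusted p = 4.11e-05).

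Within the MCM2–7 ring, 4 of the 6 subunits were called higher in 11H1 and 5 in 14B5, and *MCM6* was called lower in each. *MCM6* stood at 233.5, 227 and 242 CPM in WT, 159.9, 155 and 162 in 11H1, and 189, 199 and 194 in 14B5. Both clones lay below every WT library, and 11H1 lay below 14B5. The fall was larger in 11H1 (log2FC -0.55 ± 0.046, adjusted p = 7.4e-07) than in 14B5 (log2FC -0.29 ± 0.046, adjusted p = 0.000466), and the difference between the clones was called (log2FC -0.28 ± 0.042, adjusted p = 0.000106). *MCM4* stood at 382, 372 and 390.2 CPM in WT, 468, 465 and 469 in 11H1, and 581, 576 and 572 in 14B5. The groups lay in 3 separate ranges, with 11H1 above WT (log2FC 0.30 ± 0.043, adjusted p = 7.21e-05) and 14B5 highest (log2FC 0.58 ± 0.044, adjusted p = 2.52e-06 against WT). In 14B5 no other ring subunit rose as much.

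*MCM7* stood at 532, 508 and 505 CPM in WT, 606, 610.3 and 585 in 11H1, and 672, 673 and 709 in 14B5. It rose in 11H1 (log2FC 0.23 ± 0.046, adjusted p = 0.000978) and in 14B5 (log2FC 0.39 ± 0.048, adjusted p = 7.32e-05), again in 3 ranges without overlap. *MCM2* stood at 419.7, 414 and 434 CPM in WT, 491, 499.8 and 473 in 11H1, and 513, 521.5 and 523 in 14B5. Both clones lay above WT (log2FC 0.21 ± 0.045, adjusted p = 0.00129 in 11H1, and log2FC 0.28 ± 0.044, adjusted p = 0.000396 in 14B5), with no call between them (log2FC -0.08, adjusted p = 0.0881).

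*MCM5* stood at 388, 391 and 370.1 CPM in WT, 488, 484.5 and 469.8 in 11H1, and 435, 442 and 462.5 in 14B5. It was higher in 11H1 (log2FC 0.33 ± 0.046, adjusted p = 5.11e-05) and in 14B5 (log2FC 0.20 ± 0.048, adjusted p = 0.00495). *MCM3* stood at 557, 553 and 584 CPM in WT, 541, 512 and 515 in 11H1, and 625, 621 and 628 in 14B5. Its 11H1 libraries lay just below WT without a call (log2FC -0.10 ± 0.047, adjusted p = 0.0718), and those of 14B5 above it (log2FC 0.13 ± 0.045, adjusted p = 0.0319). In 11H1 *MCM3* was called lower with no filter (adjusted p = 0.0413) and in a fit of all 3 groups (0.0311). The call of *MCM3* in 14B5 ended without library 1 or 2 of WT (adjusted p = 0.0873 and 0.105), without library 2 or 3 of 14B5 (0.0572 and 0.0726), and with at least 10 counts in every library (0.0588). The subunits are bound in equal number in the ring, and their RNA moved by unequal amounts in these clones.

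**Figure D3:**
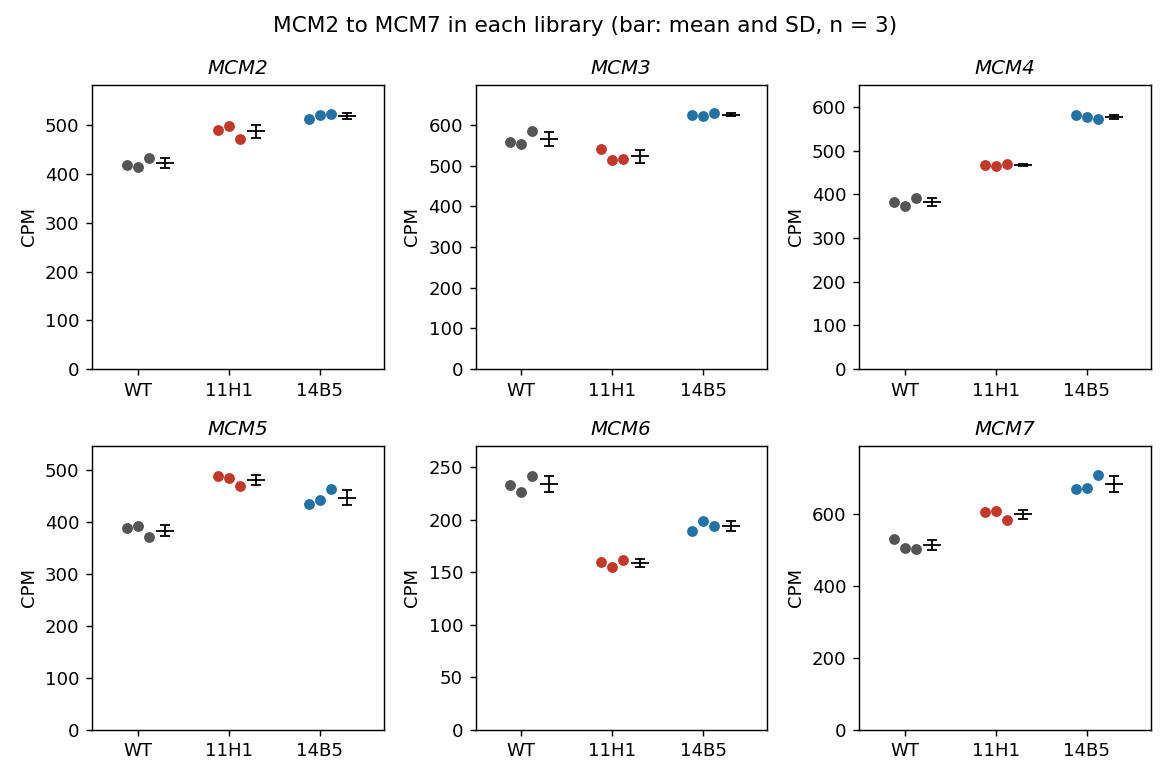
Level in CPM (vertical axis, from 0) of *MCM2* to *MCM7*, 1 point for each library of WT (grey), 11H1 (red) and 14B5 (blue), with mean and SD beside the points. *MCM6* falls from WT (227 to 242 CPM) to the clones (155 to 199 CPM), and *MCM4* and *MCM7* climb from WT to 11H1 to 14B5.

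Levels of different genes were compared per kilobase of exon (CPM per kb). In WT, *MCM6* stood at 56.8 ± 1.82 CPM per kb, below *MCM3* (155 ± 4.73 CPM per kb), *MCM7* (117 ± 3.45 CPM per kb) and *MCM2* (86.2 ± 2.05 CPM per kb). Its range overlapped that of *MCM4* (54.7 ± 1.29 CPM per kb). In 11H1 *MCM6* was the lowest of the 6 at 38.6 ± 0.866 CPM per kb, and in 14B5 the lowest at 47.1 ± 1.17 CPM per kb. As a percentage of the median of the other 5 subunits in the same library, *MCM6* was at 65.1% to 66.3% in WT, 36.9% to 40.7% in 11H1 and 44.0% to 45.4% in 14B5. With the length of the longest transcript in place of all exons *MCM6* was the lowest of the 6 in WT too. The percentages were then 53.0% to 54.0%, 30.1% to 33.2% and 35.8% to 37.0%.

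**Figure D4:**
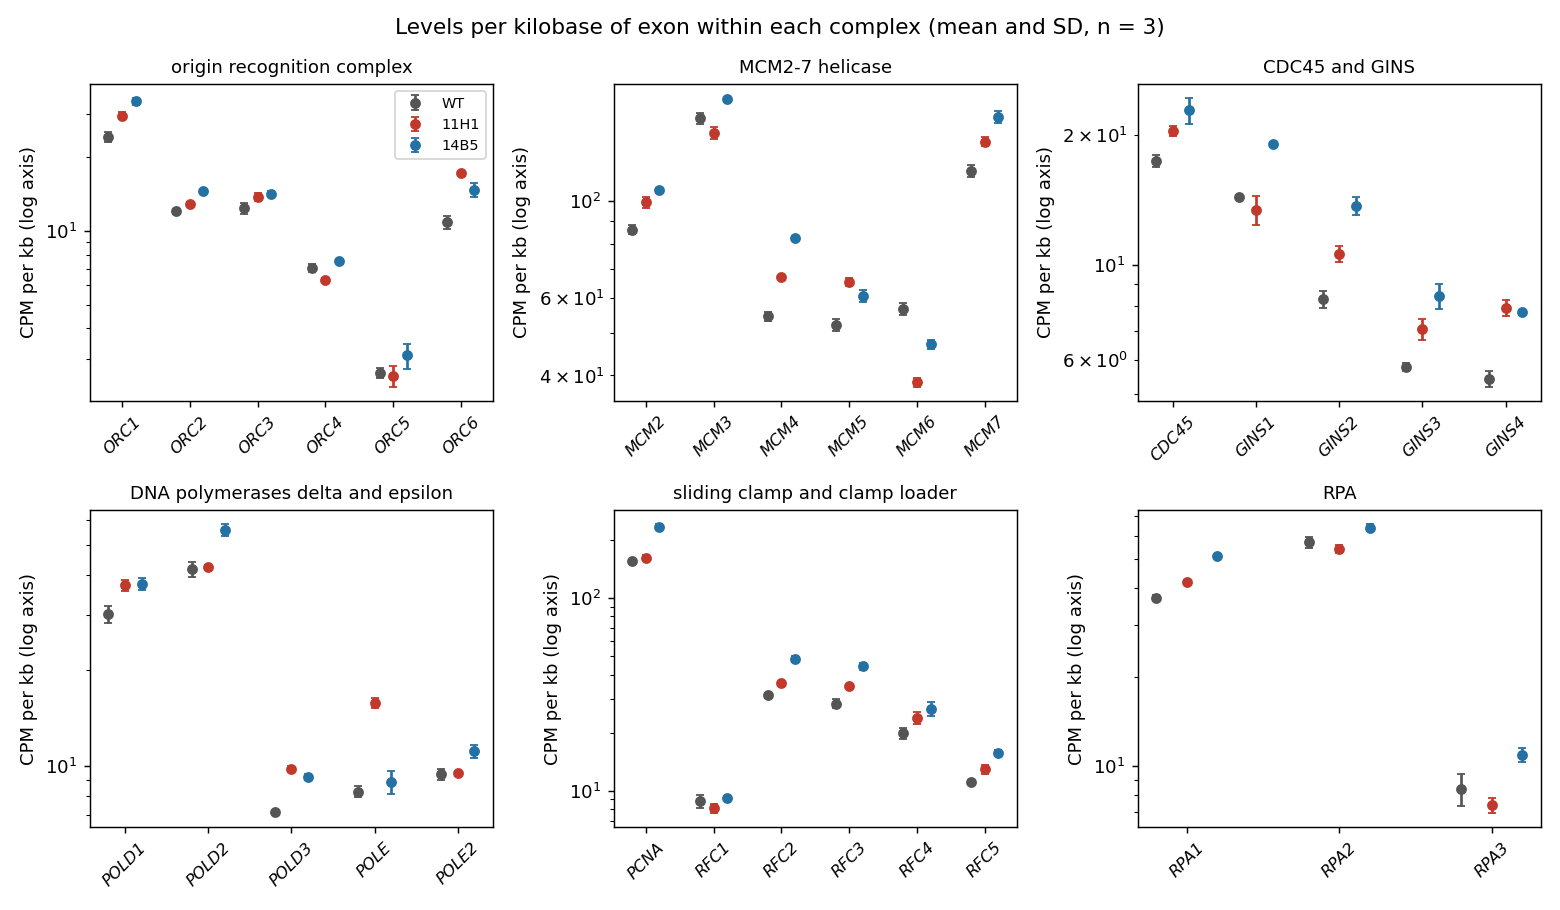
Level per kilobase of exon (vertical axis, log scale, CPM per kb, mean and SD, n = 3 libraries) of the subunits of 6 complexes in WT (grey), 11H1 (red) and 14B5 (blue). *MCM3* is the highest ring subunit in WT (155 CPM per kb), and *MCM6* drops to the bottom of its ring in the clones. *PCNA* stands far above the subunits of its loader, and *ORC5* is the lowest ORC subunit.

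The other MCM genes rose in both clones. *MCM8*, which works with MCM9 in repair by homologous recombination, stood at 46.3, 50.6 and 52.8 CPM in WT, 79.8, 77.1 and 84.9 in 11H1, and 71.9, 74.6 and 71.9 in 14B5. It rose in 11H1 (log2FC 0.70 ± 0.058, adjusted p = 7.49e-07) and in 14B5 (log2FC 0.53 ± 0.055, adjusted p = 2.5e-05). *MCM10*, which helps to start the helicase, stood at 67.0, 64.3 and 70.1 CPM in WT, 99.9, 90.3 and 96.1 in 11H1, and 98.2, 99.3 and 94.7 in 14B5. Every clone library lay above every WT library of *MCM10* (log2FC 0.52 ± 0.054, adjusted p = 5.18e-06 in 11H1, and log2FC 0.52 ± 0.048, adjusted p = 1.13e-05 in 14B5). Between the clones its log2FC was -0.02 (SE 0.048, adjusted p = 0.719).

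The kinase that fires origins rose as well. Its catalytic subunit *CDC7* was higher in 11H1 (log2FC 0.28 ± 0.053, adjusted p = 0.000556) and in 14B5 (log2FC 0.17 ± 0.057, adjusted p = 0.0259). The call of *CDC7* in 14B5 ended without library 2 of WT (adjusted p = 0.0903) or library 1 of 14B5 (0.0646). *DBF4*, which activates CDC7, was higher in 11H1 (log2FC 0.24 ± 0.047, adjusted p = 0.000701) and in 14B5 (log2FC 0.42 ± 0.046, adjusted p = 3.86e-05).

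CDC45 and GINS complete the moving helicase, and all 5 of their genes were called higher in 14B5 and 4 in 11H1. *GINS2* stood at 28.1, 27.5 and 25.7 CPM in WT, 33.5, 36.4 and 33.9 in 11H1, and 43.1, 44.1 and 47.1 in 14B5. It rose in 11H1 (log2FC 0.36 ± 0.057, adjusted p = 0.000162) and further in 14B5 (log2FC 0.71 ± 0.056, adjusted p = 3.74e-06), without overlap between the groups. *GINS4* stood at 29.5, 28.6 and 31.0 CPM in WT, 42.6, 42.2 and 45.5 in 11H1, and 42.4, 43.0 and 41.9 in 14B5. The clones overlapped each other and not WT (log2FC 0.55 ± 0.054, adjusted p = 2.71e-06 in 11H1, and log2FC 0.50 ± 0.049, adjusted p = 1.77e-05 in 14B5). *GINS3* stood at 29.6, 28.9 and 30.1 CPM in WT, 35.1, 38.5 and 34.9 in 11H1, and 46.2, 42.8 and 40.5 in 14B5. It rose in 11H1 (log2FC 0.30 ± 0.054, adjusted p = 0.000446) and in 14B5 (log2FC 0.53 ± 0.058, adjusted p = 3.64e-05).

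*GINS1* was the exception in 11H1. It stood at 58.3, 58.2 and 59.1 CPM in WT, 50.8, 59.2 and 53.9 in 11H1, and 78.8, 77.3 and 77.6 in 14B5. The 11H1 libraries lay on both sides of the narrow range of WT (log2FC -0.10 ± 0.056, adjusted p = 0.149), while 14B5 lay above it (log2FC 0.40 ± 0.042, adjusted p = 2.96e-05). Without library 2 of 11H1, *GINS1* was called lower in that clone (log2FC -0.15, adjusted p = 0.0327). *CDC45* was higher in 11H1 (log2FC 0.24 ± 0.048, adjusted p = 0.000814) and in 14B5 (log2FC 0.38 ± 0.058, adjusted p = 0.000376).

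Polymerase alpha with its primase starts each strand, and its subunits were unequal. *POLA1*, the catalytic subunit, stood at 58.6, 54.8 and 64.5 CPM in WT, 83.6, 79.6 and 83.9 in 11H1, and 78.0, 85.3 and 81.2 in 14B5. Both clones lay above WT (log2FC 0.48 ± 0.059, adjusted p = 2e-05 in 11H1, and log2FC 0.44 ± 0.063, adjusted p = 0.000227 in 14B5). *POLA2* shares 35.1% of its exon bases with a gene on the same strand (*AP000944.2*, mean 8.12 CPM). It rose in 14B5 (log2FC 0.27 ± 0.056, adjusted p = 0.00269) and in 11H1 (log2FC 0.16 ± 0.055, adjusted p = 0.025). The 11H1 call of *POLA2* ended without library 2 of WT (adjusted p = 0.162) or library 1 or 3 of 11H1 (0.0569 and 0.103), and with no filter (0.0521). *PRIM1*, the catalytic primase subunit, was lower in 11H1 (log2FC -0.25 ± 0.045, adjusted p = 0.000437) and not called in 14B5 (log2FC -0.02 ± 0.050, adjusted p = 0.787). The clones differed in *PRIM1* (log2FC -0.25 ± 0.048, adjusted p = 0.00073). *PRIM2*, its partner, was higher in 14B5 (log2FC 0.30 ± 0.051, adjusted p = 0.000655) and not called in 11H1 (log2FC 0.10 ± 0.049, adjusted p = 0.0937).

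Among the polymerases that copy the bulk of the genome, *POLE* of the leading strand set 11H1 apart. It stood at 142, 131.5 and 138 CPM in WT, 273, 255 and 257 in 11H1, and 134.5, 149 and 158 in 14B5. The 11H1 libraries lay far above all others, and 14B5 overlapped WT. *POLE* was 1.91-fold higher in 11H1 than in WT (log2FC 0.94 ± 0.051, adjusted p = 2.18e-08). In 14B5 it was not called (log2FC 0.09 ± 0.062, adjusted p = 0.272), except without library 1 of 14B5 (log2FC 0.16, adjusted p = 0.0398). Between the clones the difference was 1.78-fold (log2FC 0.84 ± 0.058, adjusted p = 2.55e-07). The partner subunit *POLE2* was not called in 11H1 (log2FC 0.03 ± 0.054, adjusted p = 0.702) and was higher in 14B5 (log2FC 0.23 ± 0.057, adjusted p = 0.00726).

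Polymerase delta copies the lagging strand. *POLD3*, an accessory subunit, stood at 39.0, 39.2 and 39.3 CPM in WT, 53.4, 53.3 and 54.9 in 11H1, and 52.0, 49.8 and 50.2 in 14B5. Both clones lay above the narrow WT range (log2FC 0.47 ± 0.045, adjusted p = 2.65e-06 in 11H1, and log2FC 0.35 ± 0.045, adjusted p = 0.000104 in 14B5). The catalytic subunit *POLD1* rose in 11H1 (log2FC 0.31 ± 0.054, adjusted p = 0.000347) and in 14B5 (log2FC 0.30 ± 0.057, adjusted p = 0.00133). *POLD2* stood at 157, 161.5 and 145 CPM in WT, 154, 159 and 158 in 11H1, and 196, 207 and 213 in 14B5. It lay within the range of WT in 11H1 (log2FC 0.03 ± 0.051, adjusted p = 0.647) and above it in 14B5 (log2FC 0.39 ± 0.056, adjusted p = 0.000211).

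The sliding clamp and 4 of the 5 subunits of its loader were higher in 14B5 than in WT. *PCNA* stood at 231, 227 and 226 CPM in WT, 233, 245 and 236 in 11H1, and 348, 333 and 351 in 14B5. All 14B5 libraries lay above all others, 1.49-fold higher than WT (log2FC 0.58 ± 0.045, adjusted p = 2.99e-06). The 11H1 libraries lay just above WT without a call (log2FC 0.07 ± 0.043, adjusted p = 0.193), and the clones differed (log2FC -0.53 ± 0.042, adjusted p = 7.66e-07). *RFC2* stood at 69.7, 71.0 and 67.0 CPM in WT, 78.4, 81.1 and 79.7 in 11H1, and 105, 104 and 110.2 in 14B5. It rose in 11H1 (log2FC 0.21 ± 0.045, adjusted p = 0.00147) and in 14B5 (log2FC 0.61 ± 0.047, adjusted p = 2.95e-06). *RFC3* stood at 77.1, 82.0 and 85.0 CPM in WT, 99.1, 100.1 and 101 in 11H1, and 133, 123 and 124 in 14B5. It too rose in 11H1 (log2FC 0.31 ± 0.047, adjusted p = 0.000128) and in 14B5 (log2FC 0.62 ± 0.053, adjusted p = 5.92e-06). Both loader subunits lay in 3 separate ranges with 14B5 on top. *RFC5* rose by a log2FC of 0.22 in 11H1 and 0.48 in 14B5, and *RFC4* by 0.27 and 0.41. *RFC1*, the large subunit, was not called in 11H1 (log2FC -0.11 ± 0.064, adjusted p = 0.155) or in 14B5 (log2FC 0.04 ± 0.059, adjusted p = 0.629).

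RPA coats single-stranded DNA at the fork, and its 3 genes were called higher in 14B5 and 1 of them in 11H1. *RPA1* was higher in 11H1 (log2FC 0.18 ± 0.043, adjusted p = 0.00292) and in 14B5 (log2FC 0.45 ± 0.042, adjusted p = 1.23e-05). *RPA2* was higher in 14B5 (log2FC 0.15 ± 0.048, adjusted p = 0.0258) and not called in 11H1 (log2FC -0.07, adjusted p = 0.222). Its call in 14B5 ended without library 2 of WT (adjusted p = 0.11) or library 3 of 14B5 (0.0685). *RPA3* stood at 30.9, 26.2 and 24.3 CPM in WT, 22.3, 24.7 and 24.8 in 11H1, and 33.5, 35.0 and 37.5 in 14B5. The 11H1 libraries overlapped WT (log2FC -0.18 ± 0.085, adjusted p = 0.0783), while 14B5 lay above it (log2FC 0.36 ± 0.085, adjusted p = 0.00502). Without library 3 of WT, *RPA3* was called lower in 11H1 (log2FC -0.26, adjusted p = 0.00739), as it was with no filter (log2FC -0.20, adjusted p = 0.00762).

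The genes that finish Okazaki fragments rose in both clones. *FEN1*, the flap nuclease, was higher in 11H1 (log2FC 0.22 ± 0.046, adjusted p = 0.00128) and in 14B5 (log2FC 0.38 ± 0.049, adjusted p = 0.000109). *LIG1*, the ligase that seals the nicks, was higher in 11H1 (log2FC 0.40 ± 0.044, adjusted p = 8.36e-06) and in 14B5 (log2FC 0.42 ± 0.044, adjusted p = 2.89e-05).

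All 5 genes of fork protection and chromatin assembly were called higher in each clone. *CLSPN* encodes claspin, which carries the checkpoint signal at stalled forks, and stood at 61.1, 60.1 and 65.7 CPM in WT, 95.8, 86.4 and 89.9 in 11H1, and 69.5, 71.2 and 70.3 in 14B5. It rose more in 11H1 (log2FC 0.55 ± 0.055, adjusted p = 3.57e-06) than in 14B5 (log2FC 0.16 ± 0.048, adjusted p = 0.018), and the clones differed (log2FC 0.38 ± 0.048, adjusted p = 3.1e-05). The call of *CLSPN* in 14B5 ended without library 1 or 2 of WT (adjusted p = 0.0602 and 0.0812). *WDHD1*, which ties polymerase alpha to the helicase, stood at 68.3, 62.3 and 71.8 CPM in WT, 94.3, 90.6 and 95.3 in 11H1, and 103, 102 and 99.0 in 14B5. It rose in 11H1 (log2FC 0.48 ± 0.056, adjusted p = 1.33e-05) and in 14B5 (log2FC 0.57 ± 0.057, adjusted p = 1.73e-05). *TIMELESS* and its partner *TIPIN* rose by a log2FC of 0.32 and 0.28 in 11H1 and of 0.28 and 0.24 in 14B5. *CHAF1A*, a subunit of the chaperone that places histones behind the fork, rose by a log2FC of 0.27 in each clone.

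Because clones can differ from their parent over whole stretches of a chromosome, each gene was set beside the other tested genes within 5000000 bases on either side (GENCODE v29, GRCh38). For most genes these neighbours were centred near 0. Their median was within 0.2 of 0 on the log2 scale for 42 of the 49 in 11H1 and 47 in 14B5. In 11H1 *MCM6* had the lowest median and *POLE* the highest. *MCM6* (chr2:135839626-135876426, minus strand) had 24 neighbours, with a median log2FC of -0.45 in 11H1 (18 of 24 below 0) and -0.55 in 14B5 (20 of 24 below 0). Of these neighbours 45.8% in 11H1 and 75.0% in 14B5 lay below *MCM6* itself. *POLE* (chr12:132623753-132687365, minus strand) had 33 neighbours in 11H1 with a median of 0.53 (5 of 33 below 0), and 32 in 14B5 with a median of 0.04 (12 below 0). *POLE* lay above 84.8% of its neighbours in 11H1. The part of such regional shifts in the levels of *MCM6* and *POLE* was not tested.

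Genes at the level of their neighbours and genes away from it were both present, and the examples here were chosen after their values were seen. In 11H1 *ORC4* on chromosome 2 was at -0.16 among neighbours with a median of -0.16, and *MCM3* on chromosome 6 was at -0.10 among neighbours with a median of -0.12. The neighbours of *GMNN* on chromosome 6 had a median of 0.43 in 11H1, where *GMNN* itself was at 0.05, and 0.00 in 14B5, where it was at 0.36. *CDC7* on chromosome 1 was at 0.28 and 0.17 among neighbours with medians of -0.35 and -0.24. *PCNA* on chromosome 20 was at 0.58 in 14B5 among neighbours with a median of 0.09.

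**Figure D5:**
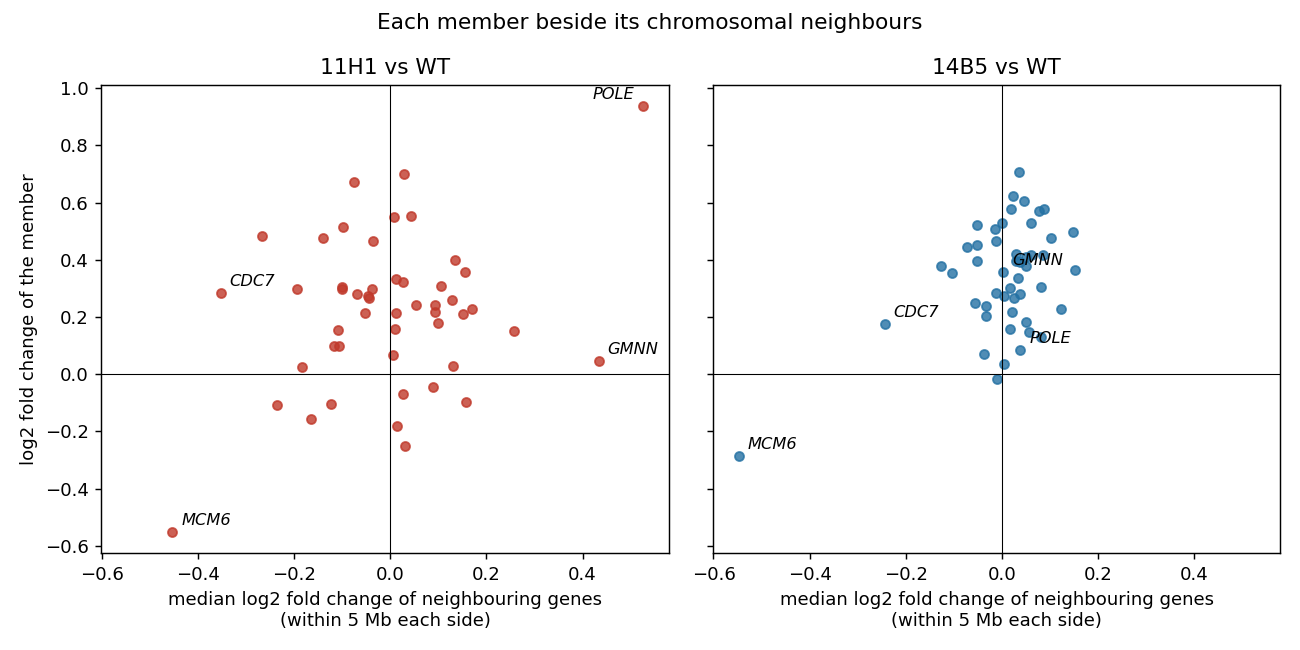
Log2 fold change of each of the 49 genes (vertical axis) against the median log2 fold change of the tested genes within 5000000 bases on either side (horizontal axis), in 11H1 (left) and 14B5 (right). *MCM6* sits at the lower left in both panels (neighbour medians -0.45 and -0.55), *POLE* at the upper right in 11H1 (0.53), and most genes lie above 0 with neighbours near 0.

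Further genes of DNA replication, listed apart from the 49, were also mostly higher. Of 42 tested, 26 were called higher and 5 lower in 11H1 (61.9% and 11.9%, beside 31.8% and 32.8% of all genes), and 32 higher and 1 lower in 14B5 (76.2% and 2.38%, beside 24.9% and 28.7%). Their median log2FC was 0.25 and 0.27, with all genes at -0.01 in each. The largest rises in 11H1 were *CHTF18* of an alternative clamp loader (log2FC 1.19; 0.30 in 14B5), *DBF4B*, another activator of CDC7 (0.99; -0.06 and not called in 14B5), and the helicase *RECQL4* (0.87; 0.58). In 14B5 the largest were *FBXO5*, an inhibitor of the anaphase-promoting complex (0.64), *DONSON*, which helps to assemble the helicase (0.64), and *MMS22L*, which acts at stalled forks (0.64). The largest falls in 11H1 were *POLD4*, the small subunit of polymerase delta (-0.54), the PCNA-associated factor *PCLAF* (-0.27) and *CHTF8* (-0.23), and in 14B5 *POLD4* alone was called lower (-0.36).

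S phase genes outside the 49 (26 genes of the list in the Seurat package) were called higher for 18 and lower for 1 in 11H1 (median 0.20), and higher for 25 and lower for 0 in 14B5 (0.33). Of 52 G2/M genes tested, 36 were higher and 5 lower in 11H1 (0.21), and 37 higher and 2 lower in 14B5 (0.31). The shares of all genes beside these counts are again 31.8% higher and 32.8% lower in 11H1, and 24.9% and 28.7% in 14B5. The lists overlap: *DTL*, *DSCC1* and *CHAF1B* of the S phase genes and *TOP2A* of the G2/M genes are also among the further replication genes. Directly between the clones, the S phase genes had a median of -0.20 and the G2/M genes -0.18, beside -0.18 for the 49.

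Across the 49 genes, the difference between 11H1 and 14B5 went with the length of the longest transcript (Spearman's rho 0.46, beside 0.16 over all 16168 genes with a length). It went little with the GC content of that transcript (0.07, beside 0.10). Against WT the rho with length was 0.43 in 11H1 (0.10 over all genes) and -0.04 in 14B5 (-0.02). These values describe genes that share libraries, genes are not replicates, and the part of length in the differences between the clones was not tested.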

How the data were processed

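The 9 RNA-seq libraries of SET2 cells were grouped by the labels into WT, 11H1 and 14B5 (n = 3 each). For each gene the table deposited by the authors holds an RSEM expected count, that is reads divided among the genes they match, without normalization for depth or length; the processing notes in the labels name STAR 2.7.9a, Picard, RSEM and GRCh38, and the annotation release is not given in the sources used here. The table held 60662 genes and 92 spike-in entries, which were at 0 and left out.

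Values were rounded and tested with edgeR 4.0.16 (R 4.3.3): TMM normalization, filterByExpr within each comparison, the quasi-likelihood F test, and adjustment by Benjamini-Hochberg over all genes tested, with a threshold of 0.05. A fold beyond 1.2 was tested with glmTreat. CPM are counts on TMM-scaled library sizes, SD are over n = 3 libraries, and SE are the log2FC divided by the square root of F. The paper gives fewer KO libraries than are in the table and does not say which was left out, so all 6 were used. The alternatives tried were the Wald test of DESeq2 1.42.0 and its size factors, voom in limma 3.58.1, other filters on low counts, a fit of all 3 groups, the replicate number as a block, mitochondrial genes left out, each library left out, transcript length and promoter length. The steps were tested on simulated counts.

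The members, the lists and the groups by role were chosen with earlier results of these data known. Values in every library were given for *MCM2* to *MCM7*, *PCNA*, *CDC6*, *CDT1*, *GMNN* and the 10 largest absolute log2FC of the 49 in each clone, and, chosen after the values were seen, for *GINS1*, *POLD2* and *RPA3*. Of the further replication genes, the 3 largest called rises and falls in each clone were named. Pairs of libraries of a group showed a spread per gene of 4.04 to 35.8 times that of counting alone, so none was a copy. Nothing in the labels says that the libraries of a group came from separate cultures, so p values measure the spread between these libraries, which may be technical. Coordinates and exon lengths are from GENCODE v29 (GRCh38), and promoters from RefSeq (GRCh38.p14), where 43 of the 49 genes matched by symbol. Pseudogenes and overlapping genes can share reads with some members, and the counts of *DBF4P1* summed to 3.80% of those of *DBF4* over the 9 libraries.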

Additional observations from a re-analysis of the deposited data

Results flagged for a closer look

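For 8 of the replication genes the change against WT differed between the clones, by a test of 11H1 against 14B5 directly (edgeR, n = 3 libraries each) that asked for a fold beyond 1.2. The 2 higher in 11H1 were 4.08% of the 49, beside 20.3% of all genes tested. The 6 lower in 11H1 were 12.2%, beside 13.2%, so neither share was above that of all genes. *POLE* was higher in 11H1 than in 14B5 (log2FC 0.84, adjusted p = 2.19e-06), and so was *CLSPN* (0.38, adjusted p = 0.0165). The other 6 were lower in 11H1 than in 14B5: *RPA3* (-0.56, adjusted p = 0.00023), *PCNA* (-0.53, adjusted p = 4.59e-05), *GINS1* (-0.51, adjusted p = 0.000498), *RFC2* (-0.41, adjusted p = 0.00241), *POLD2* (-0.38, adjusted p = 0.00944) and *GINS2* (-0.37, adjusted p = 0.0305). Genes within 5000000 bases of *POLE* had a median log2FC of 0.54 between the clones, and those near *PCNA* had -0.02, near *GINS1* 0.22 and near *CLSPN* -0.07. The part of these neighbourhoods was not tested.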

How the results depend on the processing

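The counts of genes called were within 1.5 times those reported under every alternative but 3. Asking for a fold beyond 1.2 left 11 members higher and 1 lower in 11H1, 26 and 0 in 14B5, 9 and 0 in KO, and 2 and 6 between the clones, and over all genes 6558, 4582, 2794 and 5481 calls, because it tests against a larger fold. It moved the share of calls that were higher to 30.7% in 14B5, 28.9% in KO and 60.5% between the clones, from 46.4%, 44.8% and 49.5%. With no filter on low counts 5 members were lower in 11H1, and the cause was not tested. In a fit of 3 groups 2 members were lower in KO and 10245 genes were called in all. The fit of 3 groups leaves the difference between the clones out of its error, whereas the pooled fit keeps it in. Leaving out 1 library gave 32 to 35 members higher and 3 to 4 lower in 11H1 (9685 to 11091 genes in all), 38 to 43 and 1 in 14B5 (7597 to 9040), 24 to 35 and 1 in KO (3677 to 5531), and 4 to 5 and 27 to 30 between the clones (9193 to 10204).

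Same-numbered libraries did not deviate together over all genes kept (correlations of -0.145 to 0.0581). A pairing that is weak or acts on few genes would not show in these correlations. With the replicate number as a block, 34 members were higher in 11H1, 40 in 14B5 and 26 in KO, and between the clones 30 were lower in 11H1. In 14B5 the adjusted p was then 0.113 for *MCM3*, 0.0711 for *RPA2* and 0.067 for *CLSPN*, and between the clones 0.0632 for *MCM5*. Directions turned for members near 0, given as the range of log2FC with 1 library left out. In 11H1 these were *ORC5* (-0.1045 to 0.0287), *POLD2* (-0.0225 to 0.0524) and *POLE2* (-0.0157 to 0.049), in 14B5 *PRIM1* (-0.0414 to 0.017, and 0.0188 with no filter), and in KO *MCM3* (-0.0034 to 0.0559) and *RFC1* (-0.0656 to 0.0382). Between the clones they were *MCM10* (-0.0575 to 0.0138), *POLA1* (-0.0149 to 0.0493, and -0.0023 with no filter), *POLD1* (-0.0393 to 0.02, and 0.0111 with at least 10 counts in every library), *TIMELESS* (-0.0152 to 0.054, and -0.0011 with no filter), *TIPIN* (-0.0073 to 0.0574) and *CHAF1A* (-0.088 to 0.0313). Searching only the 250 bases before the start, 34.9% of members held an E2F site, beside 3.4% of all genes. *ORC5*, which had the lowest count (317), had the largest SE of the members, 0.087 in 11H1 and 0.095 in 14B5.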
